A study of Drosophila melanogaster with 2 samples.

Results

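Trl, Clamp, psq and lola are genes of transcription regulators, of which the first 3 encode proteins that bind GA-rich DNA, and they are 4 of the 13945 protein-coding genes annotated on the main chromosome arms of the fly. They were chosen by name. Trl was selected on a measured value, the signal of a peak in one of its introns, which earlier results of these data had shown to be among the highest anywhere, and the other genes were added as its relatives. Peak positions and signals at Trl are therefore a description and carry no test. The study mapped a GFP-tagged form of the protein CG6683 on chromatin of whole Drosophila melanogaster embryos by immunoprecipitation with an anti-GFP antibody and sequencing (ChIP-seq). Embryos were of mixed sex and aged 6 to 24 hours, and they came from a transgenic line that stably expresses CG6683 with GFP at its C-terminus. There was 1 group, with 2 biological replicates numbered 2 and 3, so nothing was compared between conditions, and what drives the transgene is not given in the sources used here. Whole embryos mix all tissues, and the peak lists hold no expression values with which a cell type could be checked.

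GAGA factor, the product of Trl, binds GA repeats through a zinc finger and keeps promoters open by recruiting nucleosome remodellers. Clamp is a zinc-finger protein that binds longer GA repeats and helps to bring the dosage compensation complex to the male X chromosome. Pipsqueak (psq) also binds GA-rich DNA, and lola encodes many isoforms that share a BTB domain, the protein interaction domain also found in GAGA factor and Pipsqueak, and that end in different zinc fingers. The authors' optimal list on the build dm6 holds the peaks that passed their reproducibility (IDR) threshold. It had 2964 peaks on the main arms, and these were the strongest of 29984 pooled candidates there. Signal is the authors' own value per peak, with no normalization stated, so each list is read by its own ranks. The lowest optimal signal was 170.64 and the highest signal below the threshold was 170.62. On the arm 2L, 96.9% of the intervals of the dm6 list labelled replicate 2 were identical to intervals of the dm3 list labelled replicate 3, and 87.8% of those labelled replicate 3 to intervals of the dm3 list labelled replicate 2. The replicate number is therefore exchanged between the builds, and below it names the dm6 lists only. No read counts are given, so depth is unknown.

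Sequence at the summits of Trl and Clamp is shown first. The stretches differ in length, while the word counts per summit below use 100 bp on either side of each summit. All are from dm6 (Release 6), 5′ to 3′ on the minus strand, which is the coding strand of both genes, and none overlaps an annotated exon. Capitals mark GAGAG or ACAGTG on either strand (CTCTC and CACTGT are their reverse complements). The strongest Trl peak is shown at chr3L:14759375-14759674 with its summit at base 150. The second strongest is at chr3L:14756043-14756342 with its summit also at base 150. A weaker intronic peak is at chr3L:14760308-14760508 and a candidate below the authors' threshold at chr3L:14755212-14755412, each with its summit at base 101. The 147 bases just upstream of the most downstream Trl start lie at chr3L:14757337-14757483. For Clamp, the intronic 108 bases beside its strongest candidate lie at chr2L:22168644-22168751, with the summit at base 101.
Trl intron, strongest peak: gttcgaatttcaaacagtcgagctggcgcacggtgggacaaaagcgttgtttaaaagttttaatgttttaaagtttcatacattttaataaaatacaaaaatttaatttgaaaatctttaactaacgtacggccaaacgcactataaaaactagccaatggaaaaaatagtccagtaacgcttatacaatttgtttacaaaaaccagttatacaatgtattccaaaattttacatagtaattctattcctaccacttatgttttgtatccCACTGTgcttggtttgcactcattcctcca
Trl intron, second strongest peak: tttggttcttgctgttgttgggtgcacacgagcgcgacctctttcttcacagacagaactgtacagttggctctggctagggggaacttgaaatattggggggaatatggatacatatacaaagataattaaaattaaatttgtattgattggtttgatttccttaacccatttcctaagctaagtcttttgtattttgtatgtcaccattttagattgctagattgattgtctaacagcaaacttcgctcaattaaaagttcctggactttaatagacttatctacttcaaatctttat
Trl intron, weaker peak: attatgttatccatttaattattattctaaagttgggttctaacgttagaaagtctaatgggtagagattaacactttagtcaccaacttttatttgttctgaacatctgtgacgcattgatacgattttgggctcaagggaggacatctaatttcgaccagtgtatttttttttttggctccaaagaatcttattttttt
Trl intron, below the threshold: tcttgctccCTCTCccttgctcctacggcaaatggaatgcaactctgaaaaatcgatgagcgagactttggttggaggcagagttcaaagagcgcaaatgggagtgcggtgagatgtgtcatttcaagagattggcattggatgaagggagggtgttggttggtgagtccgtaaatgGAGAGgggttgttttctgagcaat
Trl upstream of a start: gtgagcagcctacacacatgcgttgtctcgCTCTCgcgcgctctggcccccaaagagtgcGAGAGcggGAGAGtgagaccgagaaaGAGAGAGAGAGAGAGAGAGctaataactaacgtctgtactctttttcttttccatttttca
Clamp candidate: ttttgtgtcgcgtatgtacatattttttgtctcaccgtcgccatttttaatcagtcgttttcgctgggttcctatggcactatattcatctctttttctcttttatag
The stretch of the strongest Trl peak held 1 marked word, an ACAGTG on the opposite strand, and no GAGAG. That ACAGTG was centred 123.5 bp from the summit, outside the 100 bp used for counting. The peak's whole interval held a GAGAG 196 bp from the summit. The 147 bases upstream of the start held 11 overlapping GAGAG matches, with centres from 115 to 45 bp upstream of the start. Among the 19253 annotated protein-coding starts, 20.6% had at least 1 GAGAG in such a window and 52 (0.270%) had 11 or more. The window length was set at this Trl start, where it reaches the next annotated exon, so the shares describe that window only. The other annotated Trl starts had no GAGAG in such a window. The candidate below the threshold held 2 GAGAG matches.

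Trl (FBgn0013263, 3L, 14747929 to 14761049, minus strand) carried 5 optimal peaks within 6.22 kb around the 5′ end of its 13.1 kb. With 5 kb on either side it held 8 pooled candidates, of which these 5 were optimal. By place, 3 optimal summits lay in introns, 1 at a start (within 500 bp of any of its 4 annotated starts) and 1 upstream of the gene. Among all protein-coding genes, 36.2% had at least 1 optimal summit in the gene or within 5 kb, 4.13% at least 3 and 0.681% at least 5. Of the 12932 genes under 20 kb, 0.286% had 5 or more. An optimal summit at an own start was found in 13.3% of genes and one in an intron in 5.26%. Since Trl was chosen for such a peak, its count is set beside these shares and nothing is read from it.

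**Figure D1:**
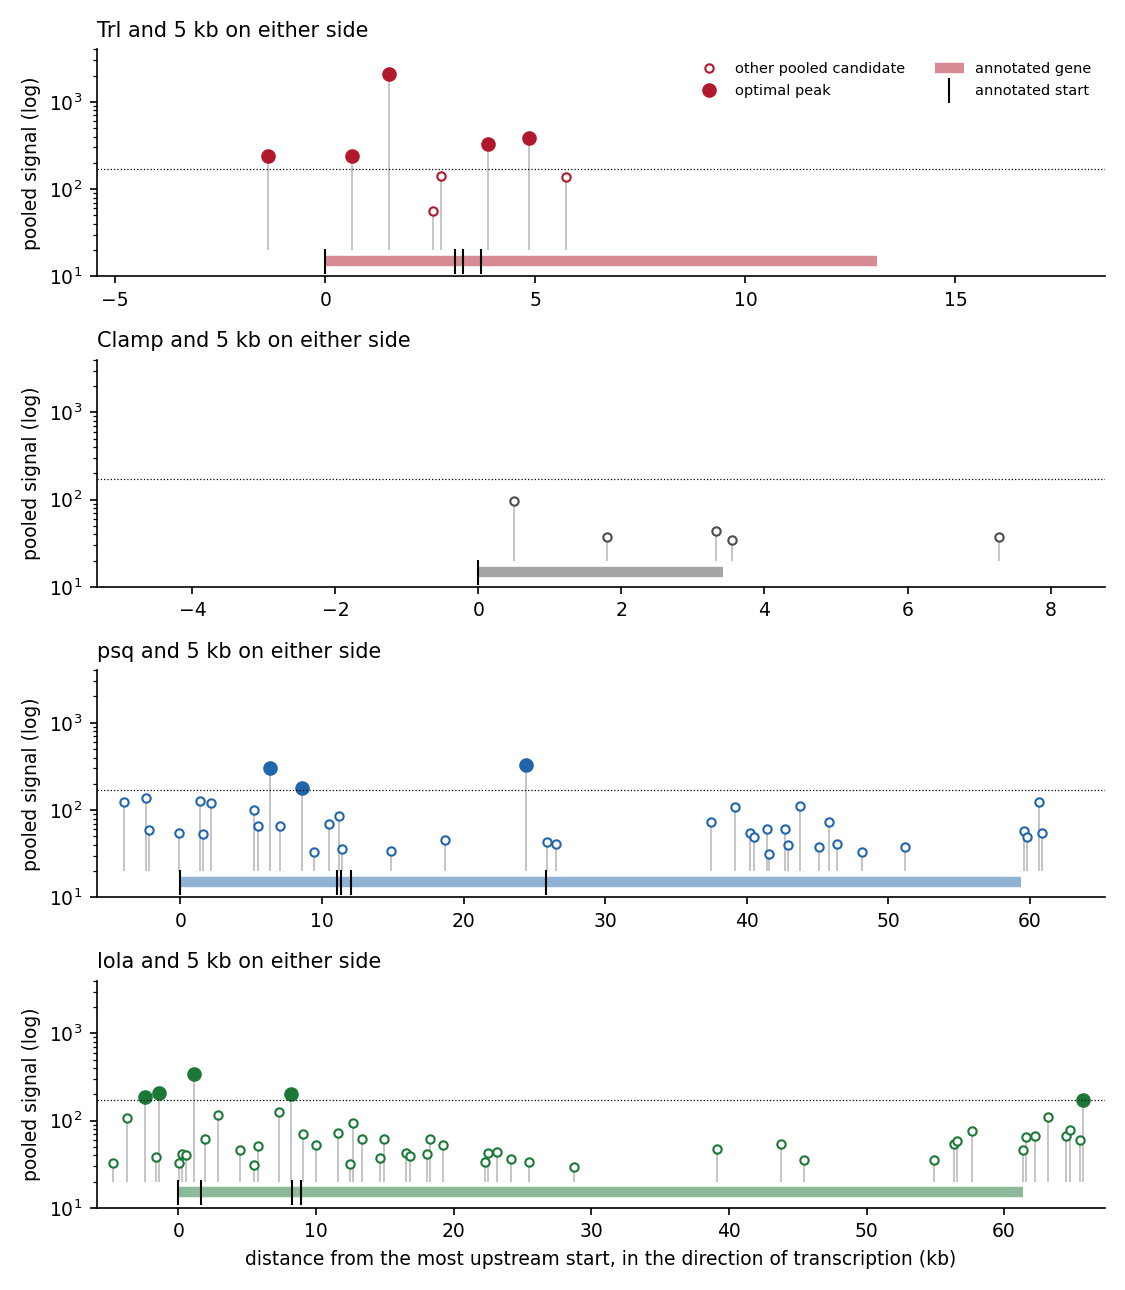
Pooled signal (log axis) of every candidate summit in the 4 genes and 5 kb on either side, against the distance in kb from the most upstream annotated start in the direction of transcription. Filled points are optimal peaks, open points other pooled candidates, bars the genes and vertical ticks the annotated starts; the dotted line is the lowest optimal signal. The 5 optimal peaks of Trl lie near its 5′ end, Clamp has none, and those of psq and lola stand among many weaker candidates.

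The strongest peak of Trl spanned 674 bp (14759210 to 14759883), against a median of 304 bp for optimal peaks, and 14 optimal peaks were at least as wide. Its summit lay 1524 bp inside the gene from the most upstream start, in intron 2 of 1 of the 10 annotated transcripts. Its signal was 2071 in the pooled list (rank 4), 769.8 in the list labelled replicate 2 (rank 8) and 1329 in that labelled replicate 3 (rank 4). Both replicate lists thus placed it among their very strongest peaks. The pooled signal was 7.94 times the median optimal signal of 261, the highest of the 626 optimal peaks on 3L and the third highest of the 1063 intronic ones. In the replicate lists the nearest summits lay 29 bp downstream and 7 bp upstream of the pooled one, along the gene.

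A second intronic peak (14756084 to 14756326) lay 1143 bp downstream of the most downstream start, in an intron of all 10 transcripts. Its signal was 387 in the pooled list (rank 704), 79.0 labelled replicate 2 (rank 3260) and 312 labelled replicate 3 (rank 420). It was therefore well inside the 2964 strongest of one replicate list and just outside those of the other. The start peak (14757072 to 14757324) had its summit 164 bp downstream of the same start, with pooled signal 332 (rank 958), 148 labelled replicate 2 (rank 900) and 193 labelled replicate 3 (rank 1066). Here the replicate ranks were close to each other, and the GA repeat shown above lay between 209 and 279 bp upstream of the summit. Another intronic peak (14760305 to 14760484) lay 641 bp from the most upstream start, with pooled signal 241 (rank 1703), 106 labelled replicate 2 (rank 1866) and 127 labelled replicate 3 (rank 2198).

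The upstream peak (14762348 to 14762492) lay 1361 bp upstream of Trl and 382 bp inside Mgat4a, which encodes a glycosyltransferase and is read in the opposite direction. Because Mgat4a had the nearest start, this peak belongs to both genes by position. Its pooled signal was 241 (rank 1709), with 40.2 labelled replicate 2 (rank 9784) and 196 labelled replicate 3 (rank 1032), so it rested mainly on 1 replicate list. CG42507, which shares exons with Trl, and Tsen34 also overlap the gene on the map, and the lists do not assign a peak to either strand. The strongest Trl candidates below the threshold were one 329 bp upstream of an internal Trl start with pooled signal 142 (rank 3956) and an intronic one with 137 (rank 4164). The latter had 119 in the list labelled replicate 2 (rank 1462) and no counterpart within 200 bp in that labelled replicate 3.

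Clamp (FBgn0032979, 2L, 22165720 to 22169143, minus strand) had no optimal peak. It is a short gene of 3.42 kb with 1 annotated start, and its window held 5 candidates with pooled signals between 34.5 and 97.3. The strongest, 492 bp downstream of the start, had pooled signal 97.3 (rank 7048), 43.1 labelled replicate 2 (rank 8858) and 58.8 labelled replicate 3 (rank 7429). It was outside the strongest 2964 in all 3 lists, and it was also the only candidate of Clamp with a counterpart in both replicate lists. Of the other candidates, 2 lay in exons and 2 downstream. A highest signal at or above that of Clamp was found in 7830 protein-coding genes (56.1%), so this gene sat near the middle of all genes.

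The psq gene (FBgn0263102, 2R, 10557888 to 10617280, plus strand) carried 3 optimal peaks, all in introns. It is 59.4 kb long with 5 annotated starts and held 39 candidates, 28 of them intronic and 4 at starts, and no candidate at a start was optimal. The strongest (10582070 to 10582513) lay 1394 bp upstream of the most downstream start, in an intron of 10 transcripts, with pooled signal 331 (rank 963), 101 labelled replicate 2 (rank 2070) and 232 labelled replicate 3 (rank 753). The next (10564102 to 10564334) lay in intron 3 of 6 transcripts, 4737 bp upstream of the nearest start, with pooled signal 305 (rank 1130), 144 labelled replicate 2 (rank 961) and 164 labelled replicate 3 (rank 1396). These peaks changed places between the replicate lists, the first being stronger in one and the second in the other.

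The weakest psq peak (10566250 to 10566693) lay 2470 bp upstream of the same start as the second. It had pooled signal 181 (rank 2712), close to the threshold, with 58.8 labelled replicate 2 (rank 5407) and 113 labelled replicate 3 (rank 2648). A stronger summit of the list labelled replicate 3 lay 181 bp upstream of it, with signal 134 (rank 1990). The nearest psq candidate below the threshold was 2417 bp upstream of the gene with pooled signal 137 (rank 4177). Its last intronic candidate lay 25411 bp beyond the most downstream start, and none of the candidates past the strongest peak reached the threshold. Of the 39 candidates, 18 had a counterpart in both replicate lists.

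lola (FBgn0283521, 2R, 10481894 to 10543291, minus strand) carried 5 optimal peaks, with 2 at starts, 2 upstream and 1 downstream of the gene, and none in an intron away from starts. It is 61.4 kb long with 24 annotated transcripts and 4 starts, and it held 50 candidates, the most of the 4 genes. The strongest (10542035 to 10542277) lay 458 bp upstream of the second start from the 5′ end, with pooled signal 342 (rank 906). The list labelled replicate 2 had 106 there (rank 1864). The list labelled replicate 3 split it into summits 100 bp upstream (signal 107, rank 2889) and 105 bp downstream (247, rank 670). The value of this peak in that list thus depends on which summit is taken.

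The other lola start peak (10534918 to 10535361) lay 108 bp upstream of an internal start, with pooled signal 204 (rank 2225), 143 labelled replicate 2 (rank 982) and 60.2 labelled replicate 3 (rank 7130). By signal, it was the single member peak with a counterpart in both lists that was lower in the list labelled replicate 3. By rank, other member peaks also stood lower there, such as the Trl start peak (900 and 1066). The upstream peaks had pooled signals of 206 (10544680 to 10544790, rank 2189) and 184 (10545508 to 10545951, rank 2638), at 1445 and 2439 bp upstream of the gene. The first had 59.7 labelled replicate 2 (rank 5267) and 139 labelled replicate 3 (rank 1865), and the second 73.4 (rank 3701) and 109 (rank 2821). Both were outside the strongest 2964 of the list labelled replicate 2. The downstream peak (10477481 to 10477647) lay 1025 bp inside whd, the gene of a mitochondrial carnitine palmitoyltransferase, which had the nearest start. Its pooled signal of 172 (rank 2930) was close to the threshold, with 132 labelled replicate 3 (rank 2040) and no counterpart labelled replicate 2.

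psq and lola are close neighbours, 14.6 kb apart on the same arm. The 4.6 kb between their windows held 5 candidates and no optimal peak. Among the 307 protein-coding genes of 50 kb or longer, 24.4% had 3 or more optimal summits and 9.77% had 5 or more. The 3 of psq and the 5 of lola are read against those shares. Per 10 kb of gene with its flanks, optimal summits numbered 2.16 in Trl, 0.432 in psq, 0.700 in lola and none in Clamp, against 0.336 over all protein-coding gene windows. All pooled candidates together were more even between the genes, at 3.46 per 10 kb in Trl, 3.72 in Clamp, 5.62 in psq and 7.0 in lola, against 3.16 over all protein-coding gene windows. Per length, Trl had the fewest candidates of the 4 genes and the most optimal summits, but it was chosen for such a peak.

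**Figure D2:**
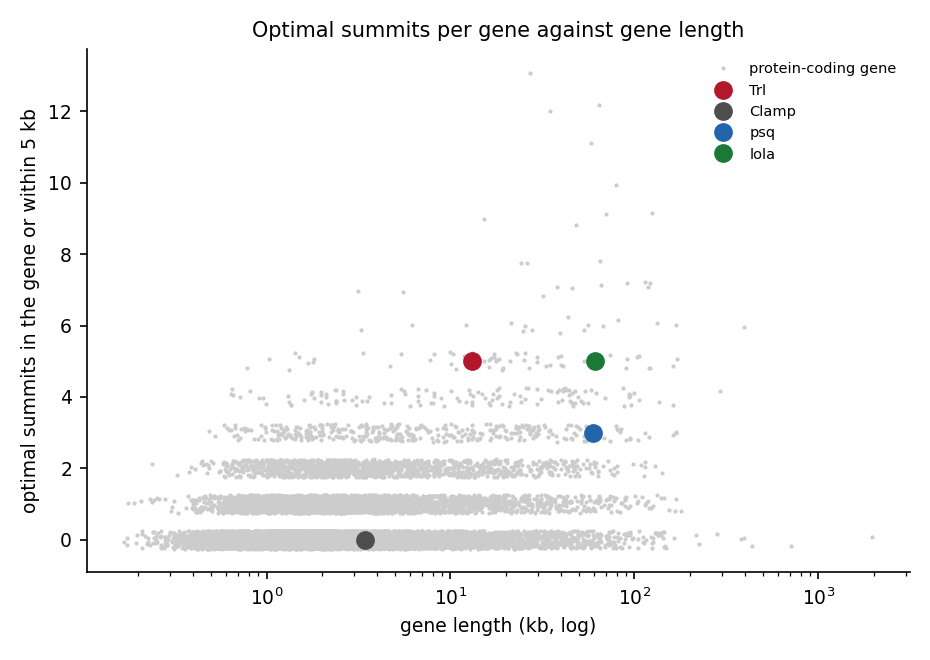
Number of optimal summits in each protein-coding gene or within 5 kb of it, against gene length in kb (log axis). Grey points are all protein-coding genes, spread slightly up and down for display, and coloured points the 4 genes: Trl and lola with 5, psq with 3 and Clamp with 0.

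By the highest signal in the window, the order of the genes was Trl (2071), lola (342), psq (331) and Clamp (97.3) in the pooled list. In the list labelled replicate 2 it was 769.8 for Trl, 144 for psq, 143 for lola and 43.1 for Clamp. In the list labelled replicate 3 it was 1329, 247 for lola, 232 for psq and 58.8. Trl stood first and Clamp last in all 3 lists, while lola and psq exchanged places and were not separated beyond the difference between replicate lists. A highest signal at least as large was found in 14 protein-coding genes for Trl (0.100%), 2113 for lola (15.2%) and 2235 for psq (16.0%), the gene itself included. The strongest 2964 candidates of the list labelled replicate 2 included 5 in Trl, 4 in psq, 3 in lola and 0 in Clamp. Those of the list labelled replicate 3 included 6, 4, 5 and 0. At starts, Trl had 2 of these labelled replicate 2 and 1 labelled replicate 3, and lola 2 and 1.

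**Figure D3:**
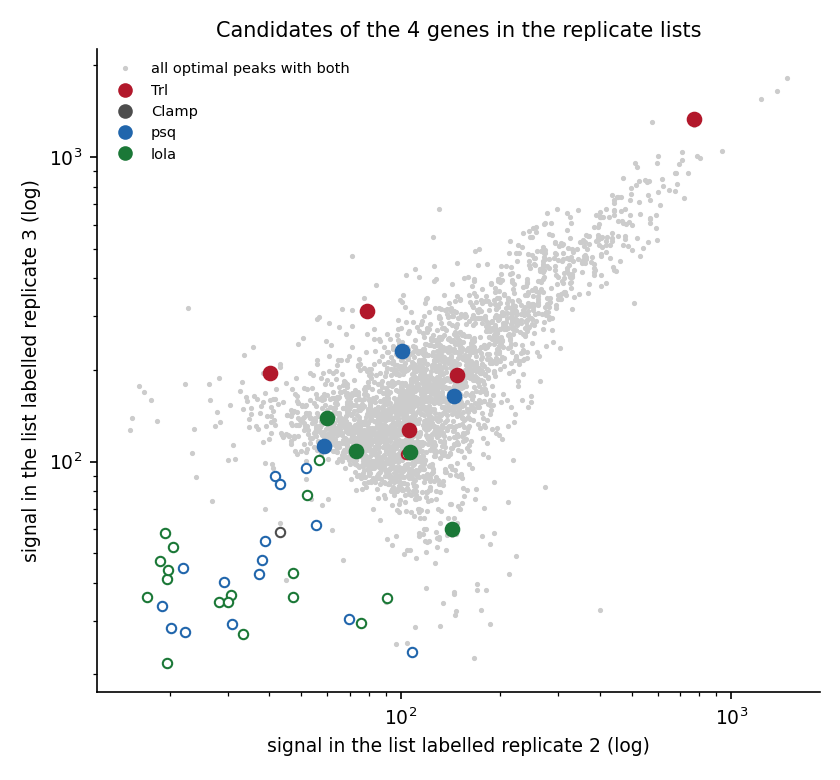
Signal in the list labelled replicate 3 against signal in the list labelled replicate 2 (both axes log). Grey points are all optimal peaks with a counterpart in both lists, filled coloured points the 12 such optimal peaks of the 4 genes and open coloured points their other candidates. The strongest Trl peak lies near the upper end of the grey points, 2 Trl peaks lie at their upper left edge and 1 lola peak at their lower edge.

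Of the 13 optimal peaks of the 4 genes, 12 had a counterpart in both replicate lists, against 97.4% of all optimal peaks. Within rank 2964 were 7 of the 13 labelled replicate 2 (75.3% of all optimal peaks), 12 labelled replicate 3 (84.6%) and 6 under both labels (63.4%). The log2 ratio of signal labelled replicate 3 to that labelled replicate 2 had a median of 0.50 over all 2886 optimal peaks with both values, with 10th and 90th percentiles of -0.21 and 1.24. Over the 12 peaks of the 4 genes its median was 0.68, with a range from -1.25 to 2.29. The Mgat4a-side peak of Trl (2.29) and its second intronic peak (1.98) had ratios reached by 0.866% and 1.84% of optimal peaks. The lola start peak at -1.25 was at the other end, with 1.14% of optimal peaks at or below it. The strongest Trl peak (0.79) was unremarkable in this respect. Signals of separate lists are not on a stated common scale, so the ratios place peaks within the set and do not measure a change.

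The word GAGAG, the core of the GAGA factor site, was about as frequent at the optimal summits of these genes as at all optimal summits, but that share differed between the replicate lists. Within 100 bp of the summit and on either strand it was present at 3 of the 13 optimal summits (23.1%), against 23.5% of all optimal summits and 23.8% of the other candidates. All 3 were lola peaks, namely both upstream peaks and the start peak 108 bp upstream of the internal start, and 0 of 5 Trl peaks and 0 of 3 psq peaks had one. The weaker candidates of the 4 genes held it more often, at 36 of 89 (40.4%), of which 2 of 3 were in Trl, 1 of 5 in Clamp, 12 of 36 in psq and 21 of 45 in lola. With the strongest candidates of 1 replicate list in place of the optimal peaks, the word was at 6 of 12 summits of these genes labelled replicate 2 (50%, against 30.2% of all such candidates) and at 2 of 15 labelled replicate 3 (13.3%, against 22.4%). Neighbouring candidates of a gene can share sequence and no test was made. At Trl the word lay outside the summit window, 115 and 196 bp downstream of the summit in the weaker and the strongest of the upstream intronic peaks, and 209 and 212 bp upstream in the start peak and the second intronic peak. No GAGAG lay within 500 bp of the Mgat4a-side peak.

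The longer repeat GAGAGAGA, which contains GAGAG, was found at 1 of 13 optimal summits of the 4 genes, the lola start peak, and at 2.26% of all optimal summits. Upstream of their 14 annotated starts, in windows of 147 bp, GAGAG was found at 3, against 20.6% of all protein-coding starts. These were the most downstream Trl start (11 matches) and internal lola starts (3 matches each). GAGAGAGA was found only at that Trl start, against 2.57% of all protein-coding starts. CAGGTAG, the site of the early embryonic activator Zelda, was at 0 of 13 (0.843% of all optimal summits), and TATCGATA, the DNA replication-related element, also at 0 of 13 (3.00%). ACAGTG, known from earlier results to be more frequent at optimal summits, was at 3 of 13 and at 14 of 89 other candidates. Over all optimal summits and other candidates it was at 18.2% and 10.5%. The 3 were the Mgat4a-side peak of Trl and 1 peak each of psq and lola. AAATAT, likewise known from earlier results, was at 6 of 13 and at 30 of 89 other candidates. Its shares over all optimal summits and other candidates were 55.8% and 37.5%. A missing word says only that these letters are not in the window.

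**Figure D4:**
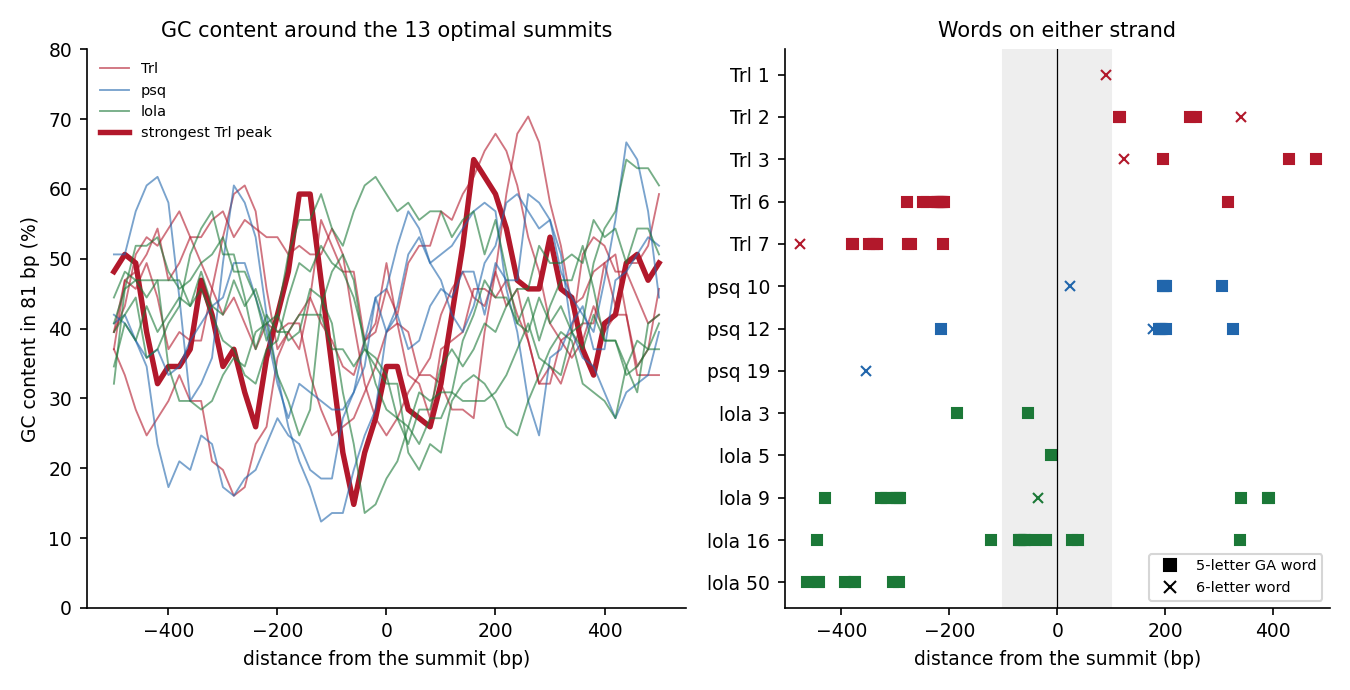
Left, GC content (percent, in 81 bp windows) within 500 bp of the 13 optimal summits, 1 line per peak, with the strongest Trl peak drawn thick. Right, positions of GAGAG (squares, the 5-letter word) and ACAGTG (crosses, the 6-letter word) on either strand within 500 bp of each summit along the gene, named by gene and candidate number; the grey band is 100 bp on either side. GC content at the strongest Trl peak is low around the summit between richer flanks. It is lowest at -60 bp (14.8%) and 34.6% at the summit itself. Only lola peaks have squares inside the band.

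The strongest Trl peak lay in AT-rich DNA between GC-richer flanks. GC content within 100 bp of its summit was 23.9%, against 46.3% in flanks centred 500 bp away, and 4.22% of all optimal summits were as low or lower. The second intronic peak (34.3% against 48.0%) and the weaker one (31.8% against 42.5%) also lay below their flanks. The Trl start peak went the other way, at 47.8% against 41.3%. Over the 13 optimal peaks GC content ranged from 23.9% to 57.2% with a mean of 36.3%, beside 35.5% (SD 7.68 across 2964 peaks) for all optimal summits, and 8 of the 13 were below their own flanks, against 77.6% of all optimal summits. The highest, 57.2%, was the lola start peak whose signal was lower in the list labelled replicate 3, and 99.4% of optimal summits had that GC content or less. The part of base composition in the replicate ratio was not tested.

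Genes related to these regulators were counted in the same way, in 5 lists. Of 14 other genes listed as BTB transcription regulators, 11 had an optimal summit in the gene or within 5 kb (78.6%, against 36.2% of all genes). The median was 1 optimal summit per gene, against 0 over all genes. At an own start, 2 of the 14 had one, against 13.3% of all genes. The highest were chinmo, a temporal regulator of neuronal fate, at 837 (251 labelled replicate 2 and 584 labelled replicate 3, 1833 bp upstream of a start), mod(mdg4), which encodes insulator proteins, at 454 (181 and 279), bab1 at 385 (139.7 and 238) and ken at 303 (129 and 182). The last 3 lay in introns. Many of these genes are long, and length was not adjusted for in this count. fru and CG8924 had no optimal summit. The entry pfk was matched to FBgn0003071, the gene of the glycolytic enzyme phosphofructokinase, which is not a BTB regulator. It also had none and is counted in the 14.

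The 16 partners of GAGA factor were mainly subunits of the remodellers NURF and PBAP and of the histone chaperone FACT. Of these, 11 had an optimal summit (68.8%, against 36.2% of all genes). At an own start, 4 of the 16 had one, against 13.3% of all genes. The highest was near Caf1-55, the histone-binding subunit of NURF, at 1381 (526 labelled replicate 2 and 835 labelled replicate 3). It lay 3954 bp downstream of the start of this 1.99 kb gene and so outside it. The peak of brm, the ATPase of the Brahma complexes, was 140 bp upstream of its start at 828 (309 and 520.1), while Bap55 had 482 (148 and 351) and Bap170 305 (155 and 137). With the gene body alone, none of the 16 had an optimal summit, against 9.04% of all genes, so their summits lay outside the genes.

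The dosage compensation genes, which work with Clamp, had no optimal summit at an own start, against 13.3% of all genes. In the gene or within 5 kb, 3 of 7 had one (42.9%, against 36.2% of all genes). These were msl-2 at 218, mof, the histone acetyltransferase gene, at 197 and the non-coding RNA gene lncRNA:roX2 at 189. All 3 summits lay more than 2 kb outside the gene, and within 2 kb the count was 0, against 25.1% of all genes. Of 3 pioneer-type factors of the early embryo, 1 had an optimal summit (33.3%, against 36.2% of all genes). This was grh, with an intronic peak at 377 (169.9 labelled replicate 2 and 202 labelled replicate 3), while zld and opa had none. Of 10 classic target genes of GAGA factor, 3 had one (30.0%, against 36.2% of all genes). They were Act5C at 468 (680 bp upstream of a start), Eip74EF at 253 in an intron, and the heat shock gene Hsp26 at 251 (127 bp upstream). The heat shock genes Hsp70Aa and Hsp70Ab, the homeotic gene Ubx and the segmentation genes en, eve, ftz and Kr had no optimal summit.

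The genes most like each member were found from the highest gene-body candidate in the 2 replicate lists, among 4635 genes with a candidate in both, by the distance of log2 signals. The lists give few points, so this likeness says only that 2 values were close. For psq and for lola the values of the 2 lists belonged to different peaks. For Trl (769.8 and 1329) the nearest were px (938 and 1051, distance 0.44), the protein kinase gene Lk6 (711 and 976, 0.46) and CG32772 (695 and 950.0, 0.51). For psq they were ReepA (0.02), apt (0.03) and Pp2C1 (0.04), and for lola pot (0.06), bab1 (0.06) and CG32365 (0.07). For Clamp they were lost (0.01), pelo (0.02) and CG3558 (0.03). Distances were largest for Trl, where few genes have values that high.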

How the data were processed

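Peaks of 2 ChIP-seq samples of 1 group were analysed. The deposited files are peak lists on dm6 and dm3, made against a control alignment, per the files' descriptions. Aligner, peak caller and IDR threshold were not given in the sources used here. Per the deposited lists, the signal of each peak is the authors' own value, with no normalization stated. The deposited lists also give a −log10 q value per peak, which was the same for all optimal peaks of the 4 genes (3.03) and was not used. The age was taken from the source name.

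Summits on chromosomes 4 and X, 2L and 2R, and 3L and 3R were placed with Ensembl release 115 and sequence came from Release 6, both in dm6 coordinates, 1-based. The dm3 lists served only to compare replicate labels. A summit counted for a gene when it lay in it or within 5 kb, at a start within 500 bp of any own start, and otherwise in an exon, an intron or outside. A counterpart was a replicate candidate with its summit within 200 bp. Words were counted once per window of 100 bp on either side of a summit.

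Genes named are the 4 genes, those of the nearest protein-coding start of each optimal summit, up to 4 of each related list with the highest signal and the 3 most alike. Other genes of the lists named for having no optimal summit, and neighbours on the map, were named after their values were seen. The members, lists and words were chosen with earlier results of these data known. No test was made, because there is 1 group and the members were so chosen; the 2 replicate values show the spread, and depth is unknown. Alternatives were each replicate list alone, the upper 50% of optimal peaks, other flanks, start windows, words and rules for counterparts. Counting was tested on simulated data. Python 3.11.15, NumPy 2.4.6, pandas 2.3.3 and matplotlib 3.10.9 were used.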

Additional observations from a re-analysis of the deposited data

How the results depend on the processing

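No paired analysis was possible because there was 1 group and no test. Of 111 results under an alternative, 78 stayed within 1.5 times the value reported and 33 moved. Taking as optimal the strongest candidates of one replicate list alone, Trl had 5 to 6 summits, 1 to 2 of them at starts, and its highest rank was 4 to 8. lola had 3 to 5 summits, 1 to 2 at starts, and psq 4 in either list. The GAGAG share at the 4 genes ranged from 13.3% to 50%, where all the strongest candidates of those lists had 22.4% and 30.2%. With the upper 50% of optimal peaks, Trl kept 3 summits and lola 1, which was at a start, density was 0.338 per 10 kb in the 4 genes and 0.173 in all genes, and the GAGAG share was 0%. The lists then had 6 (BTB regulators), 5 (partners), 0 (dosage compensation) and 1 (classic targets). The share of all genes with a summit was not counted in that setting, so nothing is read from these list counts. With the gene body alone, lola had 2 summits, density in all genes was 0.203 and the GAGAG share was 11.1%. The partners, dosage compensation and classic target lists had 0, 0 and 1, beside 9.04% of all genes. With 2 kb, lola had 3, and the partners and dosage compensation lists 7 and 0, beside 25.1% of all genes. With 10 kb, dosage compensation had 6, and the share of all genes was not counted, so nothing is read from that count. Start windows of 1000 bp gave Trl 2 and of 200 bp gave lola 1, and the most upstream start alone gave 0 for both. A GAGAG anywhere in the interval was at 38.5% of the summits of the 4 genes, GAGA within 100 bp at 53.8% and GAGAGAGA at 7.69%. The causes were not tested. Depth is unknown, 2 replicates limit precision, and peaks shared with neighbouring genes cannot be assigned to one of them.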
